A study of Mus musculus with 12 samples.

Results

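Expressed single-exon genes are genes whose row in the deposited count table gave 1 exon start. They were kept when their mean over the vehicle libraries was at least 1 CPM, that is, counts scaled to the library total, and replication-dependent histone genes were left out. Among the 56980 genes listed, 22766 had 1 start, 734 of these passed the floor, and 729 remained after 5 histone genes were removed. The 729 members were 141 protein-coding genes with no near-identical spliced copy elsewhere, 25 protein-coding genes with such a copy, 389 pseudogenes, 18 mitochondrially encoded genes, 92 long noncoding RNAs, 8 small RNAs and 56 genes with no class in the annotation used. A near-identical spliced copy was a multi-exon gene whose transcript matched at least 50% of the member at an identity of at least 95%, and 385 members had one, 359 of them pseudogenes. The comparison set was the 11042 multi-exon genes past the same floor, 10544 of them protein-coding. All 729 members passed the filter on low counts. Because the vehicle libraries chose the members, their vehicle levels are a description, and the contrasts of libraries that the choice did not use (CFZ-DOX against CFZ or DOX) are given beside those against vehicle.

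Genes without introns skip splicing, and many of them code for regulators that are switched quickly, such as transcription factors of the immediate early type, heat shock proteins and signalling receptors. Other single-exon genes are retrocopies, which arise when a spliced mRNA is reverse transcribed back into the genome. Most retrocopies are pseudogenes, and because they keep the exon sequence of their parent, short reads of a spliced mRNA can be assigned to them. The mitochondrial genome is a further source of intronless transcripts.

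The data are polyadenylated RNA of NIH/3T3, an established line of wild-type mouse embryonic fibroblasts, sequenced in 12 libraries after 8 h of treatment. Each of 4 groups held 3 libraries: DMSO, the vehicle; CFZ, with carfilzomib at 200 nM; DOX, with doxorubicin at 5 µM; and CFZ-DOX, which received the pair at these doses. Carfilzomib blocks the proteasome irreversibly. Doxorubicin inserts between DNA bases, evicts histones and traps topoisomerase II on cut DNA. The labels do not say whether libraries of a group came from separate cultures; p-values therefore measure only the spread between libraries, possibly technical. The libraries held 28278879 to 42033993 counts, and 3 counts, the limit that a count of 0 allows, corresponded to 0.0714 to 0.106 CPM. Summed fibroblast markers stood at 17768 to 103550 CPM in every library, against 3.6 to 37.2 CPM for macrophage, 0.341 to 3.58 CPM for epithelial and 1.28 to 3.74 CPM for endothelial markers. No marker of any of these cell types was at 0 in every library. The macrophage sum was 4.24 to 6.62 CPM in DMSO, 3.6 to 4.44 in CFZ, 9.72 to 17.1 in DOX and 20.9 to 37.2 in CFZ-DOX, and its part in the results was not tested. Replicates differed more with doxorubicin (chi-square per degree of freedom 51.39 to 122.81) than without it (13.75 to 32.22), so all pairs differed by more than sampling noise. In RNA of a whole culture, fewer cells and less RNA per cell cannot be told apart.

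Promoter sequence was examined for the coding members, since members that move together could share motifs near their start. Of the 141 coding members without a copy, 95 matched a RefSeq promoter window (GRCm38.p6) of 250 bases before to 50 bases after the start. The 250 bases before the start are shown for 5 genes, 5′ to 3′ on the gene's strand, with each match to a searched motif in capitals. Jun and Rhob stand for genes that were lower with doxorubicin, Hspa1b for genes higher with carfilzomib, and Purb and Tbcc for genes whose window held TGACGTCA. Purb and Tbcc were chosen after their values were seen. Jun lies at chr4:95052223-95052472 (minus strand), Rhob at chr12:8500010-8500259 (minus), Hspa1b at chr17:34959239-34959488 (minus), Purb at chr11:6476077-6476326 (minus) and Tbcc at chr17:46890371-46890620 (plus) in these windows.
Jun: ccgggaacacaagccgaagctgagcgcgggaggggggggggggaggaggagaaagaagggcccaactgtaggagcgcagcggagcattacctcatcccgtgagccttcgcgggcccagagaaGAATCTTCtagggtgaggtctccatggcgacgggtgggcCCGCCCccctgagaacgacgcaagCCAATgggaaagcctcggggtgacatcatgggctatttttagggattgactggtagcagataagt
Rhob: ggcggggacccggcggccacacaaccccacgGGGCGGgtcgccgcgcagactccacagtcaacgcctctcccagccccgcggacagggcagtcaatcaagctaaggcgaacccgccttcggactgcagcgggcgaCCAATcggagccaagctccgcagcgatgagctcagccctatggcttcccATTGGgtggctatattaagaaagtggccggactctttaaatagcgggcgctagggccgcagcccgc
Hspa1b: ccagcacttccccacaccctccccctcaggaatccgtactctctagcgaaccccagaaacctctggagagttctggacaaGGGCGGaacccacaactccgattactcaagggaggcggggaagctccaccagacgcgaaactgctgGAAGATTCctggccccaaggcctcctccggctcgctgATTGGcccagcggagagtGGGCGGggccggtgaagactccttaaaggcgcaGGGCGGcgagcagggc
Purb: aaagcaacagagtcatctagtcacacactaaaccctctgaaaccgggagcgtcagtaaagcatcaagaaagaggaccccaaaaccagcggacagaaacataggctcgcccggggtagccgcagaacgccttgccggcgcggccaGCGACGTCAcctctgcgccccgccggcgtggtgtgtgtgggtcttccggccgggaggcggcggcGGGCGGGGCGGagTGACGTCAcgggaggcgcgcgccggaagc
Tbcc: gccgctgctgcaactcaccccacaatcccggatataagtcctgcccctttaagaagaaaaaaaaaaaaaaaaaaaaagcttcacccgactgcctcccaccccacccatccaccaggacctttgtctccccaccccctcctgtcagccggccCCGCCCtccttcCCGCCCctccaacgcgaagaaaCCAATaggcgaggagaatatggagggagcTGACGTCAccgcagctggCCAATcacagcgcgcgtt

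In the Jun window a CCAAT box began 65 bases before the start, and a heat shock motif 128 bases before it. The Rhob window held 2 CCAAT boxes, 115 and 66 bases before the start. The Hspa1b window held a CCAAT box at 67 bases, GC boxes at 170, 49 and 16 bases and a heat shock motif at 104 bases before the start. The palindrome TGACGTCA, the cAMP response motif, began 29 bases before the start of Purb and 36 bases before that of Tbcc. Both strands were searched. In the Purb window a match of the antioxidant response motif TGACNNNGC on the other strand began 106 bases before the start, apart from TGACGTCA.

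Counted over whole 300-base windows, the promoters of coding members resembled those of multi-exon coding genes for most motifs. The GC box GGGCGG was in 62.1% of the 95 member windows, in 64.6% of 10856 windows of expressed multi-exon coding genes and in 35.7% of all 32851 windows. The CCAAT box was in 46.3%, 38.6% and 37.4% of them, the TATA box TATAAA in 6.32%, 6.72% and 13.6%, and the heat shock motif GAANNTTC in 6.32%, 5.63% and 7.86%. The AP-1 motif TGANTCA was in 1.05%, 4.8% and 7.81%, the serum response motif in 1.05%, 1.26% and 1.63%, the antioxidant response motif in 14.7%, 14.4% and 12.4%, and the E-box CACGTG in 8.42%, 10% and 7.15%. TGACGTCA was in 6 of 95 member windows (6.32%), against 3.17% and 1.79%. All 6 of these genes were called lower in DOX than in DMSO. With or without the motif, 57 of the 95 windows belonged to coding members lower there, and the 6 are 10.5% of these 57. How often multi-exon genes with the motif were lower was not counted, and a link between motif and decrease was not tested. They were Purb, a single-stranded nucleic acid binding protein (log2 −0.96), Irf2bpl, a zinc finger protein (−1.04), Nsmce3, a subunit of the SMC5/6 complex (−1.82), Tbcc, a tubulin folding cofactor (−1.70), Ddx28, a mitochondrial RNA helicase (−2.46), and Wdr5b, a WD repeat protein (−3.22). When CFZ-DOX was compared with CFZ, 5 of the 6 were lower, with Purb at −0.69, Nsmce3 at −2.19, Tbcc at −1.44, Ddx28 at −2.95 and Wdr5b at −1.44, while Irf2bpl was not called (−0.56, adjusted p = 0.0692 by edgeR). A match is a description of letters and not of a bound site.

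The members as a whole split by class rather than moving one way. With carfilzomib alone, 44 members were called higher and 111 lower (6.04% and 15.2%), where a call is an adjusted p under 0.05 in edgeR's quasi-likelihood test with Benjamini-Hochberg adjustment over the 16648 genes tested. The background was 14.4% of all genes higher and 14.4% lower, and 18% and 17.8% of multi-exon genes. With doxorubicin alone, 291 members were higher and 186 lower (39.9% and 25.5%), against a background of 36.1% and 31.3% of all genes and 24.3% and 42.7% of multi-exon genes. Members were thus called higher more often and lower less often than multi-exon genes in DOX, but the classes described next ran in opposite directions.

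When doxorubicin was added to carfilzomib, 346 members were higher and 184 lower in CFZ-DOX than in CFZ (47.5% and 25.2%), against 40.4% and 36.9% of all genes and 26.7% and 50.3% of multi-exon genes. When carfilzomib was added to doxorubicin, 135 were higher and 82 lower in CFZ-DOX than in DOX (18.5% and 11.2%), against 10.3% and 12% of all genes and 9.07% and 16.7% of multi-exon genes. With both drugs against vehicle, 318 were higher and 224 lower (43.6% and 30.7%), against 39.3% and 35.7% of all genes and 25.7% and 48.9% of multi-exon genes. The effect of doxorubicin differed with carfilzomib present, by the interaction term, for 79 members upward and 37 downward (10.8% and 5.08%; all genes 8.46% and 11.2%, multi-exon genes 9.19% and 15.4%). When the replicate number was added as a block, these were 132 and 57.

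These splits depended on the scaling. Scaled on 78 ribosomal protein genes, the calls were 18 higher and 329 lower in DOX against DMSO, 33 and 418 in CFZ-DOX against CFZ, 14 and 468 in CFZ-DOX against DMSO, 9 and 327 in CFZ-DOX against DOX, and 11 and 118 for the interaction. That scaling moved the median log2 change of all genes by −0.87 in DOX against DMSO, and in CFZ-DOX by −1.65 against DMSO, −1.55 against CFZ and −0.78 against DOX. The count of higher members in CFZ-DOX against DOX was 73 to 78 without DOX 2, DOX 3, CFZ-DOX 1 or CFZ-DOX 2, each left out alone.

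**Figure D1:**
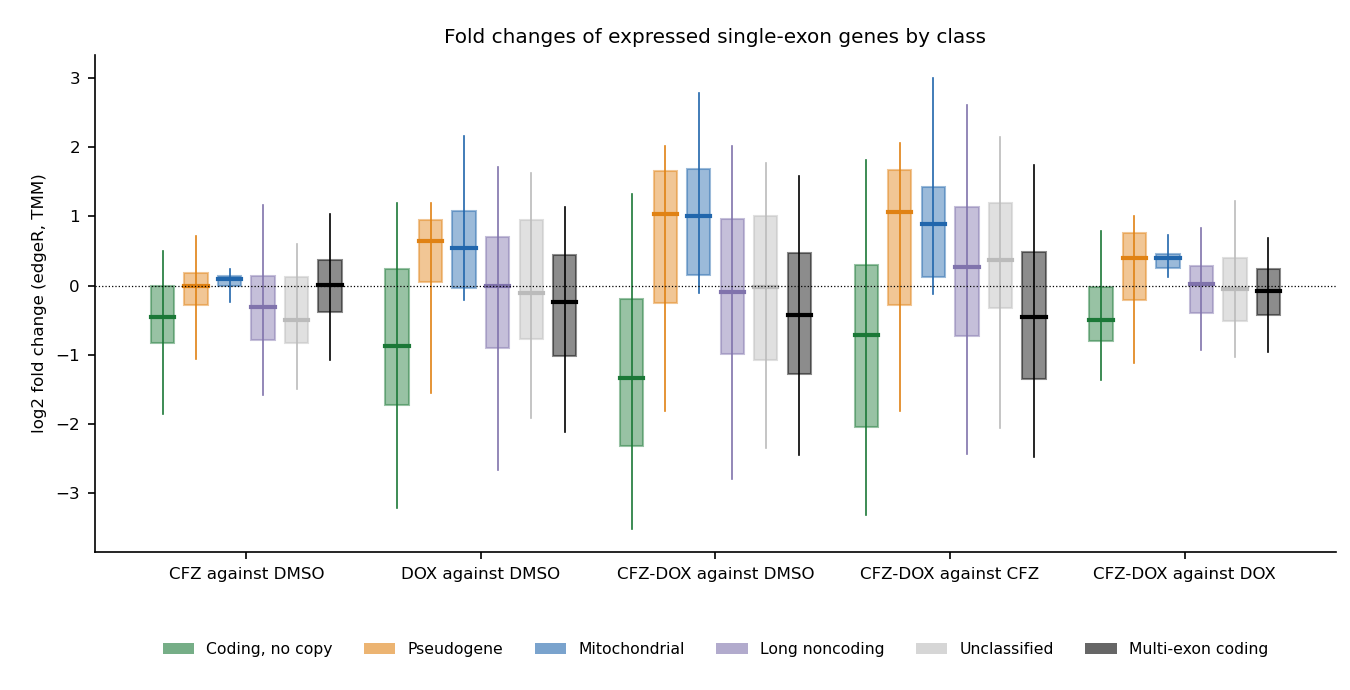
Log2 fold change (edgeR, TMM scaling; vertical axis) of the single-exon classes and of expressed multi-exon coding genes in 5 comparisons; lines are medians, boxes the 25 to 75% range and whiskers the range from 5 to 95% of genes. The median of the 141 coding members without a copy lies at −0.87 in DOX against DMSO and at −0.72 in CFZ-DOX against CFZ, while that of the 389 pseudogenes lies at 0.64 and 1.07.

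The 141 coding members without a copy were more often lower than higher in all 5 comparisons. They numbered 19 higher and 75 lower in DOX against DMSO (13.5% and 53.2%), and 26 higher and 73 lower in CFZ-DOX against CFZ (18.4% and 51.8%). Of multi-exon coding genes 24.2% were higher and 43.2% lower in the first comparison, and 26% and 51.2% in the second, so the share called lower in the second was near its background. In CFZ against DMSO the members counted 6 higher and 39 lower (27.7% lower, against 17.3% of multi-exon coding genes), in CFZ-DOX against DMSO 15 and 94 (66.7% against 49.6%), and in CFZ-DOX against DOX 3 and 33 (2.13% higher and 23.4% lower, against 8.9% and 17.2%). By the interaction 15 were higher and 12 lower, where 8.7% and 15.8% of multi-exon coding genes were. With the replicate block the lower count was 57 in CFZ against DMSO and 49 in CFZ-DOX against DOX. Without CFZ 3 the lower count in CFZ against DMSO was 25, and without CFZ-DOX 3 that in CFZ-DOX against DOX was 54.

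Length mattered for this comparison, because the change of multi-exon coding genes with doxorubicin varied with exon length. In DOX against DMSO genes of 3 to 5 separate exon blocks had a median log2 change of 0.42 at 1000 to 2000 bases. Their median was −0.45 at 4000 bases or more. Genes of 2 blocks had medians of −0.30 and −0.72 at these lengths. Each coding member was set beside the multi-exon genes whose exon length lay within 10% of its own. In DOX against DMSO the median log2 change was −0.87 for the members and 0.10 for their length matches, the median of the member-by-member differences was −0.90, and 102 of 141 members lay below their match. In CFZ-DOX against CFZ the corresponding medians were −0.72 and 0, the difference was −0.85, and 97 lay below. The differences were −0.40 in CFZ against DMSO (106 below), −1.36 in CFZ-DOX against DMSO (109 below) and −0.48 in CFZ-DOX against DOX (112 below). These medians are descriptions with no test, since genes are not replicates. Over the 656 members of any class with at least 5 length matches, the median difference was 0.07 in CFZ against DMSO, −0.17 in DOX against DMSO, −0.30 in CFZ-DOX against DMSO, −0.29 in CFZ-DOX against CFZ and −0.11 in CFZ-DOX against DOX. With members chosen by their mean over all 12 libraries instead, it was −0.03 in DOX against DMSO and 0.07 in CFZ-DOX against DMSO.

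The 2 doxorubicin contrasts that share no library were compared gene by gene. Of the 75 coding members lower in DOX against DMSO 61 were also lower in CFZ-DOX against CFZ, which is 81.3% of the first list and 83.6% of the 73 in the second. Of multi-exon coding genes 4058 were lower in both, which is 89.2% and 75.2% of those lists, so the members' overlap was near that of multi-exon genes. A further 16 were higher in both, and 0 were called in opposite directions. Under all 5 scalings (TMM, upper quartile, library size, size factors of the DESeq2 type, and ribosomal protein genes) 63 coding members were lower and 3 higher in DOX against DMSO, namely Nanos1, Frat2 and 5730596B20Rik. In CFZ-DOX against CFZ 61 were lower and 5 higher under all 5, and in CFZ against DMSO 30 were lower and 3 higher (Hspa1a, Hspa1b and Nap1l2). The ribosomal protein scaling moved the median of all genes by −0.87 in DOX against DMSO and by −1.55 in CFZ-DOX against CFZ. The rule therefore favours lower calls in these 2 comparisons for any set of genes. The share of multi-exon genes kept under it was not counted.

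Libraries within a group were not alike for these genes. DOX 3 was the highest of its 3 libraries for 100 of the 141 coding members, CFZ-DOX 3 the highest for 93, and CFZ-DOX 2 the lowest for 95. Leaving out single libraries kept the lower count between 68 and 80 in DOX against DMSO and between 67 and 86 in CFZ-DOX against CFZ.

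Immediate early regulators, the transcription factors and small proteins that cells induce first after a stimulus, were lower with doxorubicin alone. All 6 members of this list (Jun, Jund, Cebpb, Ier2, Ier5 and Ier5l) were called lower in DOX than in DMSO. Lower there were also 31.3% of all genes, 42.7% of multi-exon genes and 53.2% of coding members without a copy. The median log2 change of the 6 was −2.09, against 0.14 over all genes tested and −0.24 over multi-exon genes. Of 15 spliced relatives, such as Fos, Atf3 and Egr1, 4 were higher and 5 lower there, with a median of −0.06. In CFZ-DOX against CFZ 3 of the 6 members (Cebpb, Ier5 and Jun) were lower and 0 higher, a share near the 50.3% of multi-exon genes lower there, and 5 of the 15 relatives were higher and 8 lower. Only 6 of the 12 candidates were members, because 4 others have several exon starts in the table.

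Jun codes for a subunit of the AP-1 transcription factor and lies at chr4:94937271-94940459 (GRCm39, minus strand), overlapping an exon of its antisense gene Junos. It read 298, 192 and 161 CPM (TMM-normalised, as are all library values here) in the DMSO libraries, 472, 305 and 292 in CFZ, 50.2, 51.1 and 79.6 in DOX and 88.6, 72.6 and 162 in CFZ-DOX. The DOX libraries lay below every DMSO library and the CFZ-DOX libraries below every CFZ library. Jun was 3.6-fold lower in DOX than in DMSO (log2 −1.85, SE 0.32, adjusted p = 0.000147, edgeR's quasi-likelihood test with Benjamini-Hochberg adjustment) and 3.31-fold lower in CFZ-DOX than in CFZ (−1.73, SE 0.32, adjusted p = 0.000167). With the replicate block it was also higher in CFZ than in DMSO (0.71, adjusted p = 0.0472, against 0.098 without it), and it was higher in CFZ-DOX than in DOX (0.81, adjusted p = 0.0312, against 0.066). Since no source used here gives the strand setting of the counting, reads of Jun and Junos cannot be told apart.

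Cebpb, a leucine zipper factor of inflammation and fat cell differentiation, changed more steeply than Jun. It lies at chr2:167530835-167532338 (plus strand) and overlaps an exon of Tmem189. Its CPM were 12.6, 18.8 and 14.7 in DMSO, 12, 17.1 and 24 in CFZ, 0.352, 0.367 and 0.659 in DOX and 1.15, 0.486 and 0.509 in CFZ-DOX. All 6 libraries with doxorubicin lay far below the 6 without it. The change was 33.0-fold in DOX against DMSO (log2 −5.04, SE 0.38, adjusted p = 8.43e-08 by edgeR) and 24.5-fold in CFZ-DOX against CFZ (−4.62, SE 0.37, adjusted p = 6.7e-08).

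Ier5, an immediate early gene linked to the heat shock factor, read 105, 93.6 and 71.1 CPM in DMSO, 204, 176 and 154 in CFZ, 12.5, 13.1 and 25.5 in DOX and 21.1, 15.3 and 45.2 in CFZ-DOX. It fell with doxorubicin in both contrasts (log2 −2.40 and −2.71). Its call as higher in CFZ than in DMSO (0.98, adjusted p = 0.0403) was lost without any 1 of the DMSO or CFZ libraries, with adjusted p between 0.0602 and 0.141 in edgeR. Ier5l fell in CFZ (−1.35) and in DOX (−2.34) against DMSO, and Jund, an AP-1 partner of Jun, in both as well (−1.09 and −1.25). The CFZ call of Ier5l was lost without CFZ 3 and that of Jund without any 1 of the DMSO or CFZ libraries. Ier2 fell in DOX (−1.70) and was −0.52 in CFZ-DOX against CFZ, short of the threshold (adjusted p = 0.212). With the block Ier2 was higher in CFZ-DOX than in DOX (0.99, adjusted p = 0.0228, against 0.0724), and Ier5l lower in CFZ-DOX than in CFZ (−0.79, adjusted p = 0.022, against 0.113).

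Rhob, a small GTPase of endosomes and the actin cytoskeleton that is itself induced as an immediate early gene, lies at chr12:8547661-8550009 (minus strand). It read 290, 281 and 267 CPM in DMSO, 443, 374 and 369 in CFZ, 20.4, 22.6 and 35.9 in DOX and 26.1, 22.2 and 51 in CFZ-DOX. The libraries with doxorubicin did not overlap those without it. Rhob was 10.6-fold lower in DOX than in DMSO (log2 −3.41, SE 0.29, adjusted p = 2.59e-07) and 11.9-fold lower in CFZ-DOX than in CFZ (−3.58, SE 0.29, adjusted p = 8.69e-08).

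Adaptors of ubiquitin ligases and a cyclin were among the coding members with the largest decreases. Klhl9, a BTB and kelch adaptor of cullin 3 ligases at chr4:88636529-88640702 (minus strand), read 152, 145 and 145 CPM in DMSO, 91.4, 90.3 and 92.9 in CFZ, 8.26, 10.3 and 18.9 in DOX and 7.18, 4.9 and 11.1 in CFZ-DOX. Its decrease with doxorubicin was 11.8-fold in either contrast (log2 −3.56, SE 0.30 in both). With the block Klhl9 was also lower in CFZ than in DMSO (−0.69, adjusted p = 0.0156, against 0.0701) and in CFZ-DOX than in DOX (−0.68, adjusted p = 0.0308, against 0.0927). Kbtbd7, of the same family, fell in both doxorubicin contrasts (−2.51 and −2.06), and of 99 multi-exon genes of the family 23 were higher and 50 lower in DOX.

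Fem1a, a substrate receptor of cullin 2 ligases at chr17:56563810-56570610, read 56.3, 56.9 and 53.7 CPM in DMSO, 38.9, 35.7 and 32.8 in CFZ, 3.14, 3.94 and 4.98 in DOX and 3.3, 3.4 and 4.11 in CFZ-DOX. It was 13.8-fold lower in DOX than in DMSO (log2 −3.79, SE 0.18, adjusted p = 6.44e-09 by edgeR) and 9.91-fold lower in CFZ-DOX than in CFZ. Ccnq, the cyclin partner of CDK10, read 13.4, 12.7 and 14.7 CPM in DMSO, 11.2, 12.6 and 10.3 in CFZ, 0.542, 0.52 and 0.817 in DOX and 0.431, 0.121 and 0.441 in CFZ-DOX. Ccnq was 21.4-fold lower in DOX than in DMSO and 33.2-fold lower in CFZ-DOX than in CFZ, with no overlap of the groups. Zfp830, the 1 numbered zinc finger member, fell in both contrasts (−2.34 and −2.76), and of 347 multi-exon zinc finger genes 29 were higher and 232 lower in DOX. Ddx28, whose exons overlap Dus2, fell by 2.46 and 2.95 on the log2 scale in the same contrasts.

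**Figure D2:**
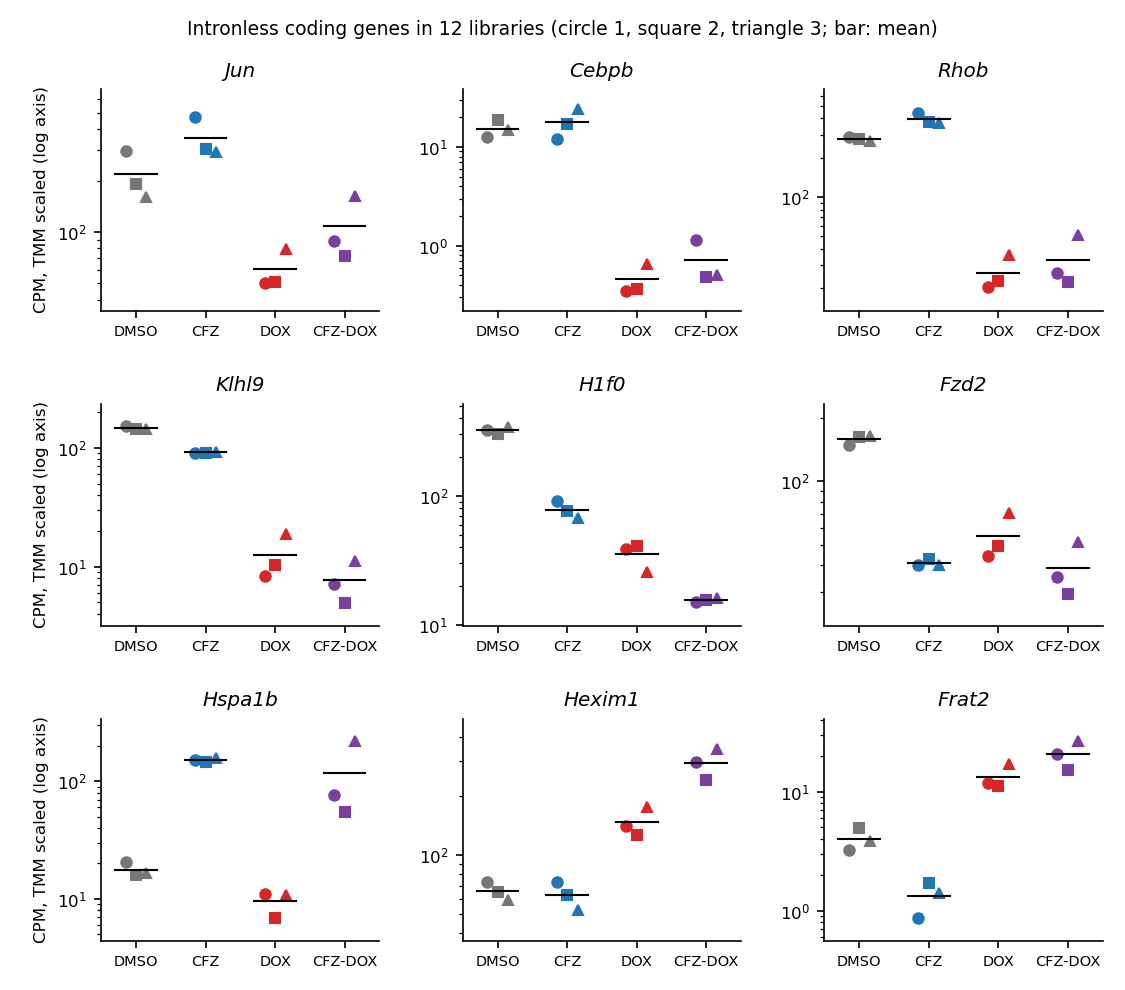
Level of 9 coding members in each library, in TMM-normalised CPM on a log axis, by group; circle, square and triangle are replicates 1, 2 and 3, and the bar is the mean of the group. Jun, Cebpb, Rhob, Klhl9 and H1f0 lie lower in DOX than in DMSO, Hspa1b lies higher in CFZ than in DMSO, and Hexim1 and Frat2 lie higher in DOX than in DMSO.

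The polyadenylated histone variants fell with either drug. H1f0, a linker histone of resting cells, read 322, 303 and 340 CPM in DMSO, 90.9, 75.8 and 67.4 in CFZ, 38.8, 41.2 and 25.5 in DOX and 15, 15.7 and 16.1 in CFZ-DOX, without overlap between any 2 groups. Its exons overlap Gm49544. Its log2 changes were −2.04 in CFZ and −3.19 in DOX against DMSO and −1.17 in CFZ-DOX against DOX, and H2afx, which marks DNA breaks once phosphorylated, changed by −2.52 in CFZ and −1.98 in DOX. Of 6 spliced histone variants 5 were lower in CFZ, and 3 were higher in DOX.

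The inducible HSP70 chaperones rose with carfilzomib. Hspa1b, at chr17:35175412-35178214 (minus strand), read 20.4, 15.9 and 16.7 CPM in DMSO, 153, 145 and 157 in CFZ, 10.9, 6.82 and 10.8 in DOX and 76.4, 54.7 and 221 in CFZ-DOX, so that CFZ-DOX 3 stood apart from the other 2 libraries of its group. It was 8.58-fold higher in CFZ than in DMSO (log2 3.10, SE 0.41, adjusted p = 0.000123) and 12.3-fold higher in CFZ-DOX than in DOX (3.63, SE 0.43, adjusted p = 0.000164). Hspa1a was 8.53-fold higher in CFZ than in DMSO, but the pair are near-identical, so how their reads divide is uncertain. With the block Hspa1b was also lower in DOX than in DMSO (−0.94, adjusted p = 0.0211, against 0.0592).

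Transcription factors of the SOX and FOX families, which set cell identity in mesenchyme, split between directions. Of the 6 members 2 were higher (Foxc1 and Foxd2) and 2 lower (Foxc2 and Foxs1) in DOX against DMSO, while of 20 spliced relatives 3 were higher and 16 lower. Among all genes 36.1% were higher and 31.3% lower there, and among multi-exon genes 24.3% and 42.7%, so the members' split was near the background. Foxc1 read 12.5, 13 and 12 CPM in DMSO, 15.7, 17.1 and 14.8 in CFZ, 29.2, 29.2 and 37.5 in DOX and 40.3, 28.6 and 44.7 in CFZ-DOX. It was 2.56-fold higher in DOX than in DMSO (log2 1.35, adjusted p = 1.16e-05) and 2.39-fold higher in CFZ-DOX than in CFZ, but that value turned to −0.28 when scaled on ribosomal protein genes. Its neighbour in the family Foxc2 read 67.6, 56.9 and 44.4 CPM in DMSO, 28.2, 34.3 and 25.4 in CFZ, 12.3, 12.3 and 29.3 in DOX and 13.4, 10.5 and 24.7 in CFZ-DOX, and fell in DOX by 1.65 on the log2 scale. With the block Foxc2 was also lower in CFZ (−0.95, adjusted p = 0.0213, against 0.0501). Foxs1, whose DOX call was lost without DMSO 1, changed by −1.79, Foxd2 by 1.26, and Sox4 rose in CFZ (0.92) and fell in CFZ-DOX against CFZ (−1.02). The CFZ call of Sox4 was lost without DMSO 2 or DMSO 3.

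Frizzled genes, the receptors of Wnt ligands, differed from each other. Fzd2 read 148, 162 and 164 CPM in DMSO, 40.2, 42.6 and 40.1 in CFZ, 44, 49.3 and 70.9 in DOX and 35, 29.3 and 51.6 in CFZ-DOX, so that the vehicle libraries stood above all others. Its log2 change was −1.95 in CFZ (adjusted p = 1.16e-05) and −1.53 in DOX (adjusted p = 1.44e-05, both edgeR against DMSO), and −0.08 in CFZ-DOX against CFZ (adjusted p = 0.711). Fzd1 fell in CFZ (−0.90), a call that was lost without CFZ 3, and Fzd7 in DOX (−0.83). Fzd8 rose slightly in DOX (0.53) under TMM scaling but was at −0.35 when scaled on ribosomal protein genes, and its call was lost without DMSO 2, DMSO 3 or DOX 1.

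A smaller group of coding members rose with doxorubicin. Hexim1, which holds the transcription elongation factor P-TEFb inactive and lies at chr11:103007057-103010551 (plus strand), read 72.8, 64.7 and 58.8 CPM in DMSO, 72.8, 62.5 and 52.5 in CFZ, 141, 126 and 175 in DOX and 297, 241 and 346 in CFZ-DOX. Each of the groups with doxorubicin lay above the others, with CFZ-DOX highest. Hexim1 was 2.25-fold higher in DOX than in DMSO (log2 1.17, adjusted p = 4.52e-05) and 4.71-fold higher in CFZ-DOX than in CFZ (2.24, adjusted p = 7.91e-08), and its rise in DOX against DMSO was 0.33 (adjusted p = 0.279) when scaled on ribosomal protein genes.

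Frat2, a GSK3-binding protein of the Wnt pathway, read 3.26, 4.96 and 3.81 CPM in DMSO, 0.863, 1.7 and 1.41 in CFZ, 11.8, 11.2 and 17.1 in DOX and 20.9, 15.2 and 26.6 in CFZ-DOX. It fell 3.0-fold in CFZ against DMSO and was 15.6-fold higher in CFZ-DOX than in CFZ (log2 3.97, adjusted p = 4.52e-08). Nanos1, an RNA-binding repressor of translation, rose in DOX against DMSO (2.14) and in CFZ-DOX against CFZ (2.25), and so did Borcs6, of the complex that positions lysosomes (1.49 and 1.81), and Gpr135, an orphan receptor (1.18 and 2.61). Scaled on ribosomal protein genes, the DOX calls of Borcs6 (0.66, adjusted p = 0.122) and Gpr135 (0.35, adjusted p = 0.28) were lost, as were those of Foxc1 (0.51, adjusted p = 0.0921) and Foxd2 (0.44, adjusted p = 0.384). The uncharacterised gene 5730596B20Rik, whose exons overlap Hoxaas3, changed by −1.98 in CFZ and 1.72 in DOX against DMSO.

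Some of the coding members with the largest decreases were lowest with both drugs. Thbd, the thrombin receptor thrombomodulin, read 220, 176 and 119 CPM in DMSO, 138, 132 and 105 in CFZ, 127, 66.4 and 53.4 in DOX and 29.8, 13.5 and 15.3 in CFZ-DOX, and only CFZ-DOX stood clear of every other library. It was 6.39-fold lower in CFZ-DOX than in CFZ and 4.21-fold lower than in DOX. Fibin, a secreted protein, fell by 2.95 and 1.69, Galnt4, which starts O-linked glycans and overlaps exons of Poc1b, by 1.57 and 1.62, and Arxes2 by 2.27 and 2.08 on the log2 scale in the same 2 contrasts. Cd248, the stromal glycoprotein endosialin and the most abundant coding member, read 509, 354 and 393 CPM in DMSO, 129, 82.1 and 64.3 in CFZ, 702, 320 and 260 in DOX and 501, 162 and 97.8 in CFZ-DOX. It differed from these genes in direction. Its decrease of 2.19 in CFZ was called (adjusted p = 0.0141) but not without CFZ 2 or CFZ 3, and it was higher in CFZ-DOX than in CFZ (1.47, adjusted p = 0.0312). The second call was lost without CFZ 2, CFZ 3 or CFZ-DOX 1 (adjusted p = 0.0949, 0.105 and 0.266), and the value was −0.22 when scaled on ribosomal protein genes. With the block Cd248 was also lower in CFZ-DOX than in DMSO (−1.03, adjusted p = 0.00152) and in DOX (−0.89, adjusted p = 0.013).

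Ubqln2, which carries ubiquitinated proteins to the proteasome, rose with one drug and fell with the other. It read 100, 112 and 110 CPM in DMSO, 145, 136 and 140 in CFZ, 43.5, 49.1 and 47.8 in DOX and 18.4, 18.1 and 20.8 in CFZ-DOX, with no overlap between any 2 groups. Its rise in CFZ (0.39, adjusted p = 0.0178) was lost without DMSO 1, DMSO 3, CFZ 1 or CFZ 3, with no filter and under 2 of the other scalings, while its decreases in DOX (−1.20) and in CFZ-DOX against CFZ (−2.87) kept their calls in every alternative. Fahd1, a mitochondrial hydrolase, fell in CFZ (−1.88) and was at 0.02 in DOX. Exoc8, of the exocyst, fell in CFZ-DOX against CFZ (−1.71).

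The 12 clustered protocadherins of the beta family, adhesion proteins of chromosome 18, ranged from 0.573 to 17.5 CPM in the DMSO libraries. In CFZ against DMSO 0 of the 12 were called, with a median of −0.22; Pcdhb11 was called lower with the block only (−0.86, adjusted p = 0.00772). In CFZ-DOX against CFZ 4 were lower (Pcdhb16, Pcdhb17, Pcdhb18 and Pcdhb21) and 0 higher, a smaller share than the 36.9% of all genes lower there. With the block 6 were lower and 2 higher, the added calls being Pcdhb5 (−0.99, adjusted p = 0.00804) and Pcdhb14 (−0.69, adjusted p = 0.0277) downward and Pcdhb9 (0.83, adjusted p = 0.0202) and Pcdhb11 (0.61, adjusted p = 0.0237) upward. The call of Pcdhb16 was lost without CFZ 1, CFZ-DOX 2 or CFZ-DOX 3 (adjusted p between 0.0693 and 0.0785). Pcdhb21 read 5.97, 4.41 and 4.84 CPM in DMSO, 4.7, 3.53 and 3.89 in CFZ, 2.55, 2.26 and 1.53 in DOX and 0.611, 0.526 and 0.17 in CFZ-DOX, which is 9.31-fold lower in CFZ-DOX than in CFZ. Its exons overlap Pcdhb22, and the family members resemble each other, so how reads divide between them is uncertain. The list of feedback and growth arrest genes gave 0 members of 20 candidates, 18 of which have several exon starts in the table.

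The largest class, the pseudogenes, moved with the spliced genes they derive from. Of the 389, 203 were higher and 51 lower in DOX against DMSO (52.2% and 13.1%), with a median of 0.64, and 235 were higher and 71 lower in CFZ-DOX against CFZ (60.4% and 18.3%), with a median of 1.07. Of all genes 36.1% were higher and 31.3% lower in the first of these comparisons, and 40.4% and 36.9% in the second. In CFZ against DMSO 23 pseudogenes were higher and 27 lower, with a median of 0.00. These are 5.91% and 6.94%, below the 14.4% of all genes in each direction. In CFZ-DOX against DOX 111 were higher and 33 lower (28.5% and 8.48%, against 10.3% and 12% of all genes). The higher count there was 50 without CFZ-DOX 2 and 56 without DOX 3. Set beside multi-exon genes of their own length, pseudogenes had a median difference of −0.03 in DOX against DMSO and −0.17 in CFZ-DOX against CFZ, or −0.20 and −0.37 beside coding genes alone. The difference was 0.21 in CFZ against DMSO, with 239 of 338 pseudogenes above their match. Only 3 were higher and 28 lower in DOX against DMSO under all 5 scalings, a rule that favours lower calls there for any set of genes.

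How close a copy comes to its parent is shown for 2 pairs, by the first 120 bases of the coding sequence in GENCODE M21 transcripts. Capitals mark the bases at which the 2 sequences differ. Gm15459 at chr5:5831615-5833555 is a copy of Hspa8, the constitutive HSP70 chaperone, with 5 differences and 0 gaps in the whole alignment. Rps2-ps13 at chrX:51987465-51988346 is a copy of the ribosomal protein gene Rps2, with 7 differences and 0 gaps.
Gm15459: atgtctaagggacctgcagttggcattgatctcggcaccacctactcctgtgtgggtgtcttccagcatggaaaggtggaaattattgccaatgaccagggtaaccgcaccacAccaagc
Hspa8: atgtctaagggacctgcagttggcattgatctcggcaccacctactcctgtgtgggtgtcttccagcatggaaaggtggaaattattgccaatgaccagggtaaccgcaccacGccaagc
Rps2-ps13: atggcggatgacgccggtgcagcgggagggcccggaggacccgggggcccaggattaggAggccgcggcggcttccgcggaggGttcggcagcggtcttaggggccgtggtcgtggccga
Rps2: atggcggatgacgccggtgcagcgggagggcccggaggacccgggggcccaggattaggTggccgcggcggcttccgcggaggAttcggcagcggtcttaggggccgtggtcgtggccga

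Gm15459 moved up with carfilzomib and down with doxorubicin, as Hspa8 did. It read 576, 640 and 614 CPM in DMSO, 2868, 2803 and 3514 in CFZ, 166, 122 and 100 in DOX and 1478, 1325 and 1222 in CFZ-DOX, with no overlap between groups. Its log2 change was 2.33 in CFZ and −2.24 in DOX against DMSO, and that of the spliced gene Hspa8 was 2.32 and −2.19. Per kilobase the copy stood at 1.07 times the level of Hspa8 in DMSO and CFZ, 1.03 times in DOX and 1.05 times in CFZ-DOX. A read that lies between the differing bases fits both genes, so these counts cannot be assigned to the pseudogene.

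Rps2-ps13 read 1012, 1150 and 1123 CPM in DMSO, 1061, 1271 and 1114 in CFZ, 2394, 2374 and 1733 in DOX and 3960, 3880 and 3206 in CFZ-DOX. It was 1.98-fold higher in DOX than in DMSO (log2 0.99) and 3.21-fold higher in CFZ-DOX than in CFZ (1.68), and Rps2 itself changed by 1.08 and 1.73. Per kilobase the copy read 6.79 times the level of its spliced parent in DMSO and 6.35 to 6.82 times in the other groups.

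Over 383 pairs of a member and its spliced gene (272 spliced genes), the 2 log2 changes were close in every comparison. In CFZ against DMSO they had a Pearson r of 0.90, in DOX against DMSO of 0.92 and in CFZ-DOX against CFZ of 0.95. The r is a description across pairs, which share the libraries, in part the spliced gene, and near-identical sequence. The median absolute difference was 0.10, 0.13 and 0.20 in the same comparisons, 371, 358 and 340 pairs lay within 0.5 of each other, and 1, 4 and 3 pairs were called in opposite directions. An exception, named after its values were seen, was Rps19-ps3, at −1.14 in DOX against DMSO where Rps19 was at 0.98. Gm9855, a copy of the DNA glycosylase gene Tdg, also differed in size: it read 27.2, 26.8 and 22.8 CPM in DMSO and 3.6, 3.42 and 3.82 in DOX, a change of −2.82 against −1.44 for Tdg.

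**Figure D3:**
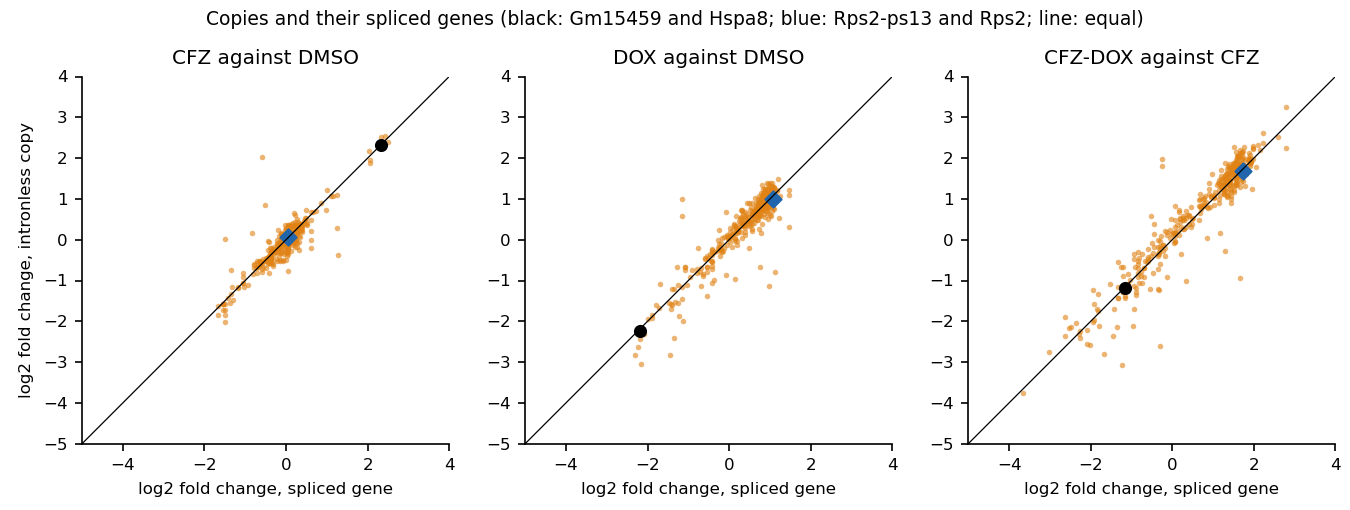
Log2 fold change of each copy (vertical axis) against that of its near-identical spliced gene (horizontal axis) for 383 pairs in 3 comparisons; the line marks equal change, black marks Gm15459 with Hspa8 and the blue diamond Rps2-ps13 with Rps2. Most pairs lie on the line, with 358 within 0.5 of it in DOX against DMSO.

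Copies of ribosomal protein genes were nearly all higher with doxorubicin. Of these 123 copies 109 were higher and 1 lower in DOX against DMSO (median 0.98), and 122 were higher and 1 lower in CFZ-DOX against CFZ (median 1.77), a direction that depends on the scaling, since scaling on ribosomal protein genes holds their parents near no change. In CFZ against DMSO 0 were called in either direction, where 14.4% of all genes were called in each. The other 261 copies counted 95 higher and 55 lower in DOX against DMSO (median 0.34), and 115 and 69 in CFZ-DOX against CFZ. Of all genes 36.1% were higher and 31.3% lower in DOX against DMSO, and 40.4% and 36.9% in CFZ-DOX against CFZ. The higher shares of these 261 copies were thus near their background. Among copies of stress genes, Gm5844, a copy of Hsp90aa1, rose in CFZ (2.54), as did Gm8337, another Hspa8 copy (2.32), and the ubiquitin copy Gm8797 (2.40). Copies that fell in CFZ were Gm13577 (−1.84) and Gm15387 (−1.57), copies of the chromatin protein gene Hmgb1 (−1.49), and Gm11223 (−1.48), a copy of the tubulin-binding stathmin gene Stmn1 (−1.29). Among coding members with a copy, Gm9844, which matches Tmsb10, rose in CFZ-DOX against CFZ (2.36), as did Rps27rt (1.83), which matches Rps27.

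Mitochondrially encoded members, which code for respiratory chain subunits, ribosomal RNAs and transfer RNAs, took the largest share of counts of any class. Of the 18, 0 were called in CFZ against DMSO, 10 were higher and 0 lower in DOX against DMSO, and 10 were higher and 0 lower in CFZ-DOX against CFZ. These 10 are 55.6%, against 36.1% and 40.4% of all genes higher in the 2 doxorubicin comparisons. Beside multi-exon genes of like length, 12 members had median differences of −0.42 and −0.54 there, with 9 below their match in each. In CFZ against DMSO the difference was 0.30, with 11 above. Of the 10 higher in DOX against DMSO, 4 were so under all 5 scalings: mt-Rnr1, mt-Tn, mt-Tc and mt-Tp, a ribosomal RNA and transfer RNAs. The ribosomal RNA mt-Rnr1 read 417, 592 and 592 CPM in DMSO, 370, 508 and 519 in CFZ, 3138, 2314 and 1354 in DOX and 5574, 3701 and 2834 in CFZ-DOX, 4.25-fold higher in DOX than in DMSO. The messenger of the complex I subunit mt-Nd1, the member with the highest level per kilobase, was at 0.02 in DOX (adjusted p = 0.905). That of the oxidase subunit mt-Co1 rose by 0.78 but was at −0.11 when scaled on ribosomal protein genes, and mt-Cytb was lower with the block only (−0.42, adjusted p = 0.0122, against 0.0563).

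Long noncoding members had no common direction. Of the 92, 11 were higher and 23 lower in CFZ against DMSO (12% and 25%, against 14.4% of all genes in each direction). They counted 25 and 32 in DOX against DMSO (27.2% and 34.8%, against 36.1% and 31.3%), and 32 and 22 in CFZ-DOX against CFZ (34.8% and 23.9%, against 40.4% and 36.9%). Gm20342, inside Ino80dos on the same strand, read 0.787, 1.06 and 1.23 CPM in DMSO, 0.536, 0.414 and 0.502 in CFZ, 11.5, 14 and 12 in DOX and 8.04, 7.61 and 8.42 in CFZ-DOX, which is 12.2-fold higher in DOX than in DMSO and 16.6-fold higher in CFZ-DOX than in CFZ. Gm42547 and Gm48604 followed in DOX (1.65 and 1.53). Among the 56 unclassified members, 19 were higher and 15 lower in DOX (33.9% and 26.8%), near the 36.1% and 31.3% of all genes. ENSMUSG00000120144, which has no symbol in the annotation used, read 52.2, 51.4 and 55.8 CPM in DMSO and 1.46, 1.56 and 4.3 in DOX, a 21.6-fold decrease, and was also lower in CFZ with the block only (−0.70, adjusted p = 0.0173). ENSMUSG00000119584, the unclassified member with the highest level per kilobase, was not called in DOX (0.38) and was 2.8-fold higher in CFZ-DOX than in CFZ, at −0.07 when scaled on ribosomal protein genes.

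The noncoding members were also divided by position in the genome, as a description with no test of the difference. The background in DOX against DMSO was 36.1% of all genes higher and 31.3% lower, and 24.3% and 42.7% of multi-exon genes. In CFZ-DOX against CFZ it was 40.4% and 36.9% of all genes, and 26.7% and 50.3% of multi-exon genes. The 25 noncoding or unclassified members inside another gene on the same strand counted 4 higher and 13 lower in DOX against DMSO (median −0.83) and 6 and 13 in CFZ-DOX against CFZ (−1.18). The 70 that were clear of other genes counted 25 and 17 (median 0.31), and 30 and 12 (0.46). The order was the other way in CFZ against DMSO, with medians of −0.19 inside a gene and −0.42 clear of genes, and in CFZ-DOX against DOX the medians were −0.01 and −0.14. Reads of unspliced RNA of the surrounding gene were not separated from those of a member inside it. Of the 112 coding members clear of other genes 14 were higher and 59 lower in DOX against DMSO, close to the class as a whole. Small RNAs were few, at 8: 5 were lower in DOX than in DMSO (62.5%) and 0 higher, against 31.3% and 36.1% of all genes. Of the small RNAs Mir6236 read 1.31, 2.46 and 1.03 CPM in CFZ and 22.9, 21.2 and 14.4 in CFZ-DOX, a change of 3.59 on the log2 scale. Whether these reads come from a microRNA transcript or from another RNA was not tested.

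The members' part of each library moved differently by class. Coding members without a copy took 0.677 ± 0.0251% of counts in DMSO, 0.493 ± 0.0339% in CFZ, 0.357 ± 0.0592% in DOX and 0.25 ± 0.0755% in CFZ-DOX (mean ± SD, n = 3). Pseudogenes took 0.552 ± 0.0444%, 0.781 ± 0.0665%, 0.736 ± 0.024% and 1.07 ± 0.0647% in the same order, and mitochondrial members 1.88 ± 0.204%, 1.94 ± 0.275%, 2.37 ± 0.09% and 2.84 ± 0.457%. The coding share in the DOX and CFZ-DOX libraries thus lay below that in DMSO by more than the SD of either group, and the pseudogene share above it. The larger pseudogene share in CFZ was not a rise of the class, since 5.91% of pseudogenes were called higher there and 6.94% lower. The abundant Hspa8 copy Gm15459 rose in CFZ, by 2.22 to 2.39 on the log2 scale with each library left out in turn. The share without it was not computed.

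**Figure D4:**
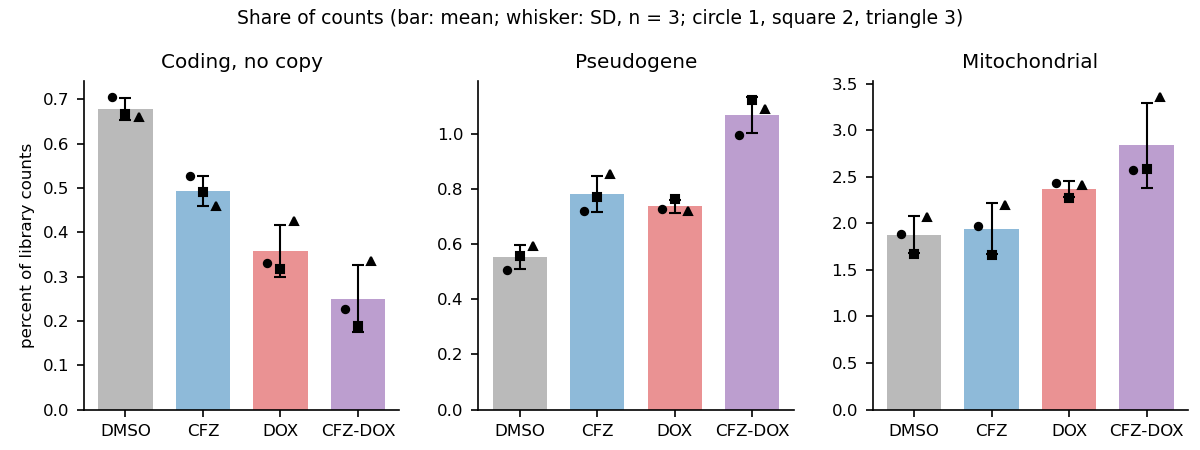
Share of all counts of a library (percent, from 0) taken by coding members without a copy, pseudogenes and mitochondrial members; bars are means of 3 libraries, whiskers the SD and points the libraries. The coding share is highest in DMSO (0.677%) and lowest in CFZ-DOX (0.25%), while the pseudogene share is highest in CFZ-DOX (1.07%).

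The number of exons was then followed beyond 1, in coding genes of like exon length. Here 1 block also includes genes whose annotated exons all overlap, 214 in all. At 1000 to 2000 bases the median log2 change in DOX against DMSO was −0.76 for 53 genes of 1 block, −0.30 for 89 of 2 blocks and 0.42 for 429 of 3 to 5 blocks, with 0.41 and 0.44 at 6 to 10 and over 10 blocks. At 2000 to 4000 bases the medians ran −0.53, −0.48, −0.07, 0.08 and 0.02 in the same order. At 4000 bases or more they ran −0.82, −0.72, −0.45, −0.40 and −0.48, so 1-block genes had the lowest median of each length class.

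In CFZ-DOX against CFZ the pattern held for shorter genes and narrowed for long ones. The medians at 1000 to 2000 bases were −0.47, −0.20, 0.68, 0.29 and 0.43, and those at 4000 bases or more were −1.01, −0.77, −0.80, −0.74 and −0.72. In CFZ against DMSO genes of any length had medians of −0.44 for 1 block, −0.27 for 2 blocks, −0.07 for 3 to 5, 0.03 for 6 to 10 and 0.04 for more, but at 4000 bases or more 2-block genes (−0.32) lay below 1-block genes (−0.23). Few-exon genes are also shorter in the genome, with a median span of 2822 bases for 1 block and 48832 bases for over 10, and the part of span in these medians was not separated.

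**Figure D5:**
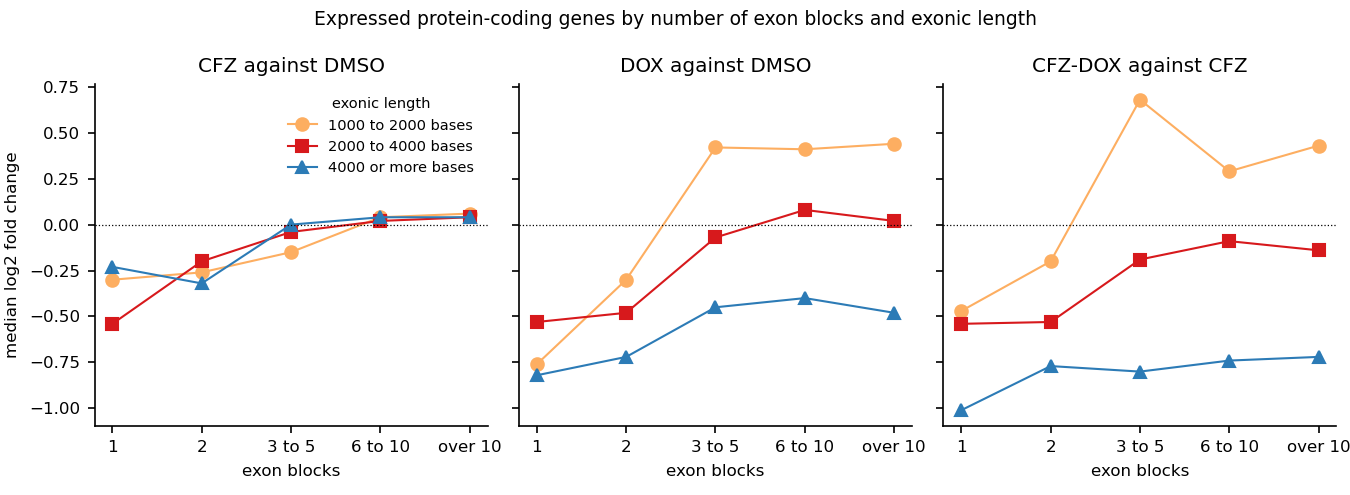
Median log2 fold change (vertical axis) of expressed coding genes by number of merged exon blocks (horizontal axis) for 3 classes of exon length and 3 comparisons. In DOX against DMSO 1-block genes have the lowest median of every length class, at −0.76, −0.53 and −0.82.

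The coding members also had features that the rule did not use. Their transcripts were 52.2% G and C in the median, against 49.9% for multi-exon coding genes, and held 0.945 ATTTA motifs per kilobase against 0.836. Their median exon length was 2734 bases, that of pseudogene members 654 bases and that of expressed multi-exon genes 4626 bases. Levels also differed, since 56 of the 111 members at 20 CPM or more in DMSO were coding without a copy, but 8 of the 255 at 1 to 2 CPM, where 155 had a spliced copy. The members just inside the floor were Gm9396 (1.002 CPM), Gm9493 (1.004) and Gm12138 (1.005), and just outside lay Gm15484 (0.997), Gm16238 (0.992) and Gm6652 (0.992), all pseudogenes.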

How the data were processed

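Polyadenylated RNA of 12 NIH/3T3 libraries was sequenced, and groups were taken from the sample labels. The authors deposited raw read counts per gene. Tools named by the submitters' processing notes are STAR 2.7.9a, Subread 2.0.2 with featureCounts, and Trimmomatic 0.39, and the build is GRCm39. The strand setting, the treatment of multimapping reads and the annotation release are not given in the sources used here. The deposited table also gives exon starts, ends and an exon length, which was used for matching and for values per kilobase. Symbols and classes came from GENCODE M21, which matched 52125 of 56980 IDs and left 56 members without a symbol.

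Counts were filtered (filterByExpr, minimum count 10, minimum total 15), scaled by TMM and fitted over all 12 libraries with edgeR 4.0.16 (R 4.3.3, limma 3.58.1). P-values from edgeR's quasi-likelihood F test were adjusted over 16648 genes by the Benjamini-Hochberg method and called at 0.05. The SE is the absolute log2 change divided by the square root of F. The fit was tested on simulated data. Copies were found with blastn 2.17.0 (identity of at least 95% over at least 50% of the member). Length matches lay within 10%, with at least 5 per member. Alternatives were 4 other scalings, DESeq2 1.42.0, no filter, a threshold of 0.01, only the 6 libraries compared, each library left out and the replicate block.

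Same-numbered libraries deviated together: the correlation of their deviations was 0.65, 0.54 and 0.58 in CFZ against DMSO, 0.31, 0.39 and 0.17 in DOX against DMSO, 0.36, 0.11 and 0.12 in CFZ-DOX against CFZ, and 0.74, 0.58 and 0.78 in CFZ-DOX against DOX. It was 0.36, 0.15 and 0.05 in CFZ-DOX against DMSO, where 1 pair missed the 0.1 required. The labels do not say what a number stands for.

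Members and gene lists were chosen with earlier results of these data known, and the division by near-identical copy after the data were seen. Named genes were the 6 members with most reads per kilobase, up to 6 highest and 6 lowest called coding members per comparison (mean of at least 5 CPM, groups not overlapping), the members of the role lists, up to 3 highest and lowest called noncoding members or pseudogenes in CFZ and in DOX against DMSO, and the members beside the floor. Genes with the searched TGACGTCA match and Rps19-ps3 and Mir6236 were named after their values were seen.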

Additional observations from a re-analysis of the deposited data

Results flagged for a closer look

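For 21 named members the effect of doxorubicin differed with carfilzomib present, by the interaction term of edgeR's quasi-likelihood test with Benjamini-Hochberg adjustment over all genes. Each difference is the log2 change of CFZ-DOX against CFZ minus that of DOX against DMSO.

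In 8 members the log2 change with doxorubicin was higher with carfilzomib than without it, at or above no change in both settings. This compares changes and not levels. With each library left out in turn, Fahd1 (−0.91 to −0.65), 5730596B20Rik (−0.6 to −0.43), Foxl1 (−0.58 to −0.12) and Gm11223 (−0.3 to −0.04) stayed lower in CFZ-DOX than in DOX. Frat2, Hexim1 and Gm9844 stayed higher there, and Gpr135 ranged from −0.12 to 0.12. Except for Hexim1, all had a negative log2 change in CFZ against DMSO. Frat2 changed by 1.73 without and 3.97 with carfilzomib, a difference of 2.23 (adjusted p = 0.00153). The difference was 1.45 for 5730596B20Rik (adjusted p = 0.00335), 1.42 for Gpr135 (0.00267), 1.06 for Hexim1 (0.00857), 1.29 for the Stmn1 copy Gm11223 (0.00275) and 1.23 for the Tmsb10 copy Gm9844 (0.0142). Foxl1 differed by 1.23 (0.0459) and Fahd1 by 1.12 (0.0141). Only the call of Frat2 was kept among these 8 when scaled on ribosomal protein genes; the others stood between 0.37 and 0.78 there, with adjusted p between 0.0958 and 0.477.

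In 5 members the decrease with doxorubicin was smaller with carfilzomib present. Fzd2 changed by −1.53 without and −0.08 with carfilzomib, a difference of 1.45 (adjusted p = 0.00324). H2afx differed by 1.56 (0.00342), H1f0 by 0.87 (0.0199), Ier5l by 1.7 (0.0296) and the Hspa8 copy Gm15459 by 1.05 (0.0143). None of these 5 was called when scaled on ribosomal protein genes, where the differences were 0.75, 0.89, 0.23, 1.02 and 0.4 in the same order.

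In 8 members the log2 change with doxorubicin was lower with carfilzomib than without it. For Gm5844 this was not a lower level: CFZ-DOX against DOX stayed at 0.05 to 0.35 with each library left out in turn. It changed by 0.68 without and −1.69 with carfilzomib. Ubqln2 changed by −1.2 without and −2.87 with carfilzomib, a difference of −1.68 (adjusted p = 2.97e-05). The difference was −2.08 for Fibin (0.00447), −1.61 for Arxes2 (0.00551), −1.61 for Thbd (0.0271), −1.16 for Galnt4 (0.00276), −1.95 for Pcdhb21 (0.00933), −1.25 for Sox4 (0.0244) and −2.37 for the Hsp90aa1 copy Gm5844 (0.0004). Sox4 was not called when scaled by library size (−1.37, adjusted p = 0.0868). The interaction calls of Thbd, Ier5l, Foxl1, Sox4 and H1f0 were each lost without some single libraries: adjusted p reached 0.0943 for Thbd, 0.0785 for Ier5l, 0.118 for Foxl1, 0.0592 for Sox4 and 0.0713 for H1f0.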

How the results depend on the processing

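Scaling on ribosomal protein genes gave 18 members higher and 329 lower in DOX against DMSO, 14 and 468 in CFZ-DOX against DMSO, 33 and 418 in CFZ-DOX against CFZ, 9 and 327 in CFZ-DOX against DOX, and 11 and 118 for the interaction. Under it the direction reversed in DOX against DMSO for Fzd8 (−0.35), Gm5844 (−0.19) and mt-Co1 (−0.11). In CFZ-DOX against DMSO it reversed for 5730596B20Rik (−0.45), Borcs6 (−0.08), ENSMUSG00000119584 (−0.51), Foxc1 (−0.03), Fzd8 (−1.0), Gm11223 (−0.94), Gm15459 (−0.52), Gm42547 (−0.18), Gm5844 (−0.82), Gm8337 (−0.53), Gpr135 (−0.44), Nanos1 (−0.3) and mt-Co1 (−0.4). In CFZ-DOX against CFZ it reversed for Cd248 (−0.22), ENSMUSG00000119584 (−0.07), Fahd1 (−0.4), Foxc1 (−0.28), Foxd2 (−0.49), Fzd1 (−0.72), Gm12138 (−0.51), Gm42547 (−0.15) and mt-Co1 (−0.54). The cause was not tested.

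Other settings moved the counts that rest on few calls. With only the 6 libraries compared, 67 members were higher and 201 lower in CFZ against DMSO, and 47 and 39 in CFZ-DOX against DOX. Higher members in CFZ-DOX against DOX numbered 55 by library size, 214 by DESeq2 and 43 at a threshold of 0.01, where 42 were lower. The interaction gave 44 higher by library size, 130 by upper quartile, 138 by DESeq2 and 20 (with 18 lower) at 0.01. With the replicate block the interaction gave 132 higher and 57 lower. In the other comparisons the block moved each count of members by less than 1.5 times, to 48 higher and 161 lower in CFZ against DMSO, 306 and 203 in DOX against DMSO, 330 and 238 in CFZ-DOX against DMSO, 359 and 200 in CFZ-DOX against CFZ, and 199 and 111 in CFZ-DOX against DOX. It added 44 calls for named genes and ended none. Restricted to members without a near-identical copy, which removes members by construction, 22 were higher in CFZ against DMSO, 87 in DOX against DMSO and 88 in CFZ-DOX against DMSO. The same restriction gave 109 higher and 114 lower in CFZ-DOX against CFZ, 22 and 50 in CFZ-DOX against DOX, and 40 and 18 for the interaction.

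Leaving out 1 library at a time gave 73 to 178 higher members in CFZ-DOX against DOX, and 44 to 137 higher and 20 to 54 lower for the interaction. The interaction count fell to 44 without DMSO 2, 46 without DMSO 3, 51 without CFZ 1, 45 without CFZ 2 and 48 without DOX 2, and rose to 137 without CFZ-DOX 3. Its lower count was 23 without DMSO 1, 21 without DMSO 2 and 20 without CFZ 3. The median difference from length-matched genes ranged from −0.04 to 0.13 in CFZ against DMSO and from −0.33 to −0.26 in CFZ-DOX against CFZ.

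That median over all members depended on who was counted. In the order CFZ, DOX and CFZ-DOX against DMSO, then CFZ-DOX against CFZ and against DOX, it was −0.08, −0.51, −0.84, −0.64 and −0.24 with a floor of 5 CPM in DMSO, and −0.37, −0.74, −1.12, −0.71 and −0.42 for protein-coding genes only. For members without a copy it was −0.26, −0.47, −0.77, −0.49 and −0.3. For coding members without a copy it was −0.41, −0.91, −1.34, −0.85 and −0.47 against coding genes, −0.47, −0.94, −1.47, −0.94 and −0.51 with the floor of 5 CPM as well, and −0.25, −1.32, −1.87, −1.72 and −0.64 matched on genomic span within 25%. These sets were chosen after seeing the data, except the first 2. Chosen on all 12 libraries, it was −0.03 in DOX and 0.07 in CFZ-DOX against DMSO and −0.11 in CFZ-DOX against CFZ. Chosen on CFZ libraries, it was −0.18 in CFZ-DOX against DMSO and −0.24 against CFZ. With exons merged into 1 block it was −0.22 and −0.17 in these comparisons, and with a length window of 25% it was −0.22 in CFZ-DOX against DMSO. Matched on span, all members gave −0.36 in DOX and −0.71 in CFZ-DOX against DMSO, −0.78 against CFZ and −0.3 against DOX. Matched on length and level together they gave 0.01, −0.08 and −0.08 in DOX against DMSO, CFZ-DOX against DMSO and CFZ-DOX against CFZ.

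Without Cd248 the coding share in DMSO was 0.631%. Without Rps2-ps13 the pseudogene share was 0.431, 0.662, 0.52 and 0.751% in DMSO, CFZ, DOX and CFZ-DOX, and without mt-Co1 the mitochondrial share was 1.28, 1.29, 1.44 and 1.72%. The pseudogene share without the Hspa8 copy Gm15459, which rose in CFZ, was not computed. Depth limits the weakest members most: 255 of 729 lay between 1 and 2 CPM in DMSO. The 3 libraries of a group limit every test, and counts of copies cannot be divided between genes.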
